A study of Mus musculus with 4 samples.

Results

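*2010110G14Rik* (ENSMUSG00000106095.2) is a long noncoding RNA gene between *Rpl34* and *Lef1* on mouse chromosome 3, and its first intron holds the insertion site of a TRACER transgene. Its contacts were read from all restriction fragments whose midpoint lies within the gene, chr3:130838455-130937337 on the minus strand of mm10 (GRCm38), which were 120 of the 2350945 scored fragments of the genome. The fragments were chosen by position, without regard to their scores. The data comprised 4 libraries of 4C-Seq, in which crosslinked chromatin is cut and ligated and the partners of a fixed viewpoint are sequenced, so that fragments often close to the viewpoint get high scores. Whisker pads of OF1 embryos at e12.5 (120 pads per condition by the labels, whereas the methods name E12.5 and E13) and whole kidney of adult OF1 mice, the control tissue, were each digested to single cells and read from the *Lef1* promoter and from the enhancer Leaf. The labels name no genotype or treatment for either tissue, and no transgene, so that the insertion site is described here on the reference sequence. There was 1 library per tissue and viewpoint and pads were pooled, so that no difference below has a replicate check or a test. Tissue and age change together in this design and cannot be told apart, and neither can fewer cells with a contact and a weaker contact in each cell. The assay holds no expression values, so that the tissue labels could not be checked against marker genes.

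*Lef1* encodes a DNA-binding partner of β-catenin in Wnt signalling, and its expression in the mesenchyme of the snout precedes whisker follicles. Enhancers far from a promoter are thought to act on it when the chromatin folds so that both come close, and such contacts are commonest inside a topologically associating domain. TRACER is a Sleeping Beauty transposon with a *LacZ* reporter that shows the activity of enhancers around the site where it lands. Many long noncoding RNA genes lie among enhancers of a neighbouring gene, and no function of *2010110G14Rik* is taken as known here.

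The gene spans 98883 bp, and its start site is the end nearest to *Lef1*. The start site lies 171 kb centromeric to the promoter viewpoint and 82.2 kb centromeric to the Leaf viewpoint, and the far end lies 270 kb and 181 kb away. In GENCODE M21 the RNA has 3 exons that sum to 527 bp. The insertion, at 130927182 to 130927529, falls in the intron of 95219 bp between exon 1 and exon 2, and its middle lies 9.98 kb inside the gene from the start site. Another 8 annotated genes lie wholly within *2010110G14Rik*, among them a snoRNA and 2 processed pseudogenes. The sequences at the insertion and at the start site are shown because contacts of both places can only be read where the enzymes cut them. Capitals mark the sites of NlaIII (CATG), the primary cutter, and of DpnII (GATC), the secondary cutter, on the RefSeq sequence of GRCm38.

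Fragment at the TRACER insertion, chr3:130927482-130927738, plus strand: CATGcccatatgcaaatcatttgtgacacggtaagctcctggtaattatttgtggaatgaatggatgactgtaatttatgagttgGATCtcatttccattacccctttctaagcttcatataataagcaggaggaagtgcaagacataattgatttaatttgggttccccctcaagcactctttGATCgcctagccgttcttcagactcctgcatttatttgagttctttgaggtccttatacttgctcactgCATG

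Start site of 2010110G14Rik with the bases before it, chr3:130937288-130937587, minus strand: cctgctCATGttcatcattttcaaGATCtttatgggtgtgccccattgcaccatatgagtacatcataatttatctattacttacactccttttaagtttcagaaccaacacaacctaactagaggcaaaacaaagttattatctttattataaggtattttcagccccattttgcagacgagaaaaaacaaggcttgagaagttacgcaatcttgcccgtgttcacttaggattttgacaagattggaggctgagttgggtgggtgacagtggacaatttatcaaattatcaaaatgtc

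The 348 bases of the insertion site hold 5 NlaIII sites and 1 DpnII site. Of these bases, 44 lie in the fragment shown, the scored fragment that reaches the site, and the other bases fell in no scored fragment. At the start site, the fragment from 130937278 to 130937577 covers exon 1 and 290 of the 300 bases shown, although its midpoint lies beyond the gene. No scored fragment overlapped exon 2 or exon 3, so that the exons of the RNA are covered only at its start.

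Each raw score was scaled by the mean over chromosome 3 fragments within 1 Mb of the viewpoint, so that a normalized score of 1 is the mean of that neighbourhood. This mean ranged from 16.5 to 101 in the 4 libraries, and was lower in kidney for both viewpoints, while raw scores summed to between 787783 and 854206 over the genome. From the promoter, 1195 of the 2007 fragments within 1 Mb had a score in whisker pad and 585 in kidney. From Leaf, 739 of 1992 had one in whisker pad, while 278 did in kidney. The kidney libraries thus detected fewer fragments around the locus as a whole. The part of this in the tissue differences below was not tested.

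From the *Lef1* promoter, nearly every fragment of *2010110G14Rik* had a score in whisker pad, and fewer than 50% had one in kidney. Of its 120 fragments, 116 had a score above 0 in whisker pad and 55 in kidney. Their normalized scores averaged 1.84 in whisker pad and 0.870 in kidney, a log2 ratio of 1.08, or a 2.12-fold higher score in whisker pad. The median was 1.30 in whisker pad, with quartiles of 0.644 and 2.46, whereas in kidney the median fragment was at 0. Whisker pad had the higher score at 92 fragments and kidney at 24, and 4 were at 0 in both. All 55 fragments with a score in kidney also had one in whisker pad, and another 61 had one in whisker pad alone. Whisker pad thus had a score at 2.11 times as many fragments of the gene as kidney did. This was close to the same ratio over the 1901 fragments within 1 Mb of both viewpoints, which was 2.06, and within 300 kb of the promoter it was 1.60. The ratio of the gene was thus near that of the wider region and above that within 300 kb.

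From Leaf, the gene had a mean score of 1.94 in whisker pad and 1.47 in kidney, a log2 ratio of 0.40. A score was present at 91 fragments in whisker pad and at 30 in kidney, and the kidney median was again 0. Whisker pad had the higher score at 76 fragments and kidney at 21, and 23 were at 0 in both. Of the 30 fragments with a score in kidney, 24 had one in whisker pad as well. The normalized scores above 0 averaged 5.87 in kidney and 2.56 in whisker pad. This order depends on the scale, which was 16.5 in kidney and 65.0 in whisker pad. The highest raw score of the gene from Leaf was 420.5 in kidney and 814 in whisker pad. Counting the fragments above 0 and not their scores, the log2 ratio of whisker pad to kidney from Leaf rose from 0.40 to 1.60, and that from the promoter stayed at 1.08. From Leaf, 3.03 times as many fragments of the gene had a score in whisker pad as in kidney, against 2.69 times within 1 Mb of both viewpoints. This ratio was 2.38 within 300 kb of the promoter and 3.14 in the centromeric flank of equal length, so that the gene was near its flank.

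**Figure D1:**
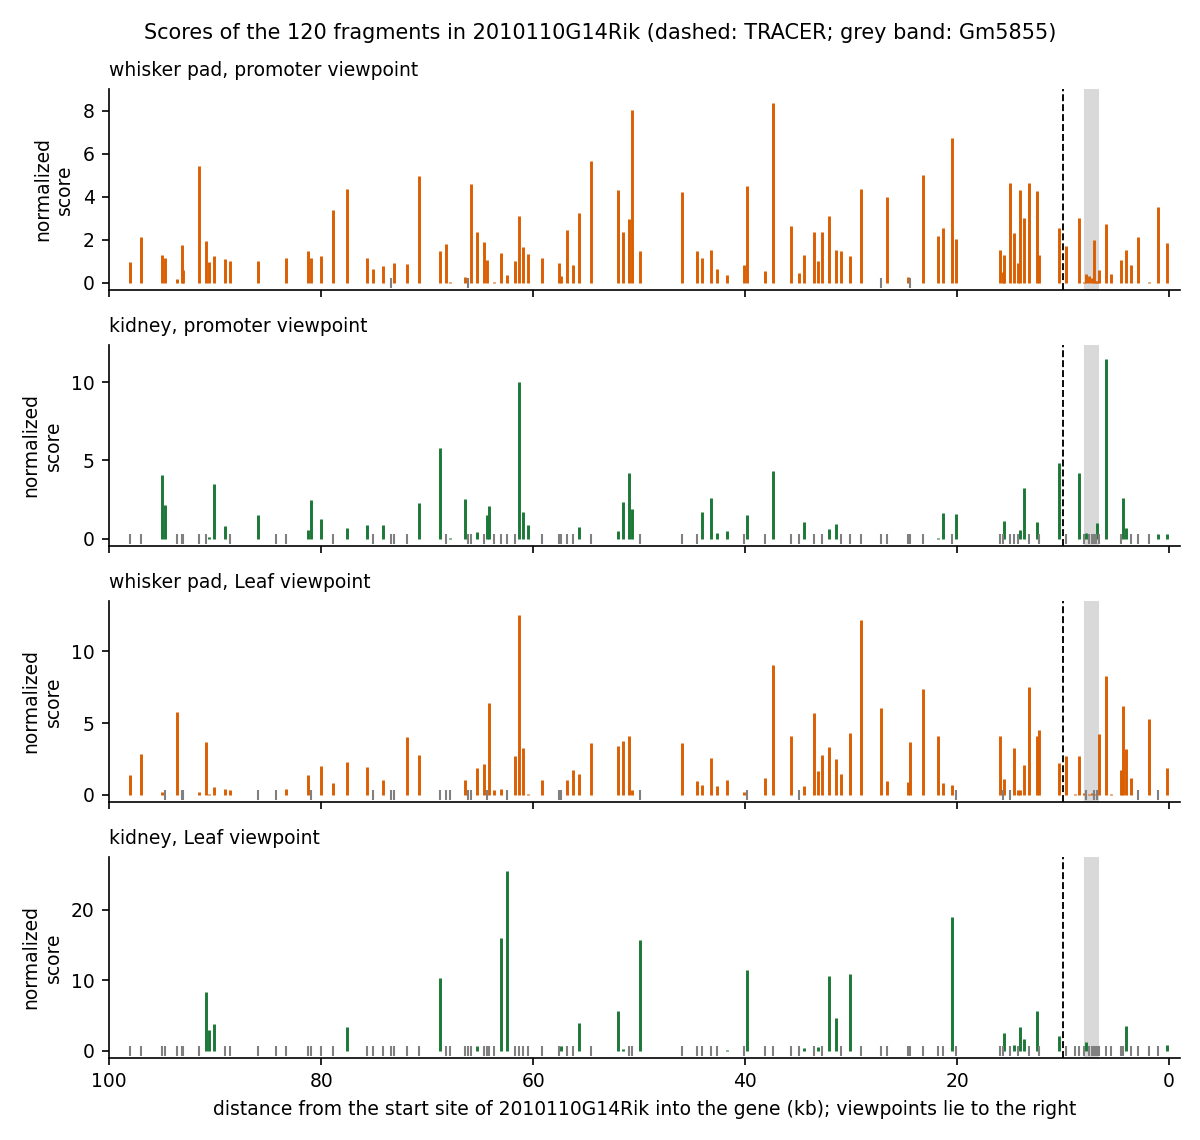
Normalized score of each of the 120 fragments (bars; grey ticks mark fragments at 0) against the distance of its midpoint from the start site of the RNA, in 4 panels by tissue and viewpoint whose vertical axes differ. In whisker pad, 116 fragments from the promoter and 91 from Leaf carried a score, whereas the kidney panels show 55 and 30, with the highest bars in the Leaf panel.

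The scores were spread over more fragments of the gene in whisker pad than in kidney. From the promoter, 24 fragments made up 50% of the summed score of the gene in whisker pad and 9 did in kidney. From Leaf, these numbers were 18 and 6. The fragments above 0 numbered 116 and 55 from the promoter and 91 and 30 from Leaf. Fragments at 0 in kidney thus enter this comparison, and their part in it was not tested. No such share is given for a region outside the gene. The 3 highest fragments held 10.5% of the gene's score in whisker pad and 26.1% in kidney from the promoter. From Leaf they held 14.5% and 34.3%. Of the 120 fragments, 40 were above 0 in both whisker pad libraries and in neither kidney library, which is 33.3% of the gene, against 26.3% of the centromeric flank of equal length, 18.0% of the fragments within 300 kb of the promoter and 11.7% of those within 1 Mb of both viewpoints. The opposite pattern was found at 0 fragments of the gene and at 1 of the 1901 fragments within 1 Mb. A score was present in all 4 libraries at 19 fragments and in none at 2.

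**Figure D2:**
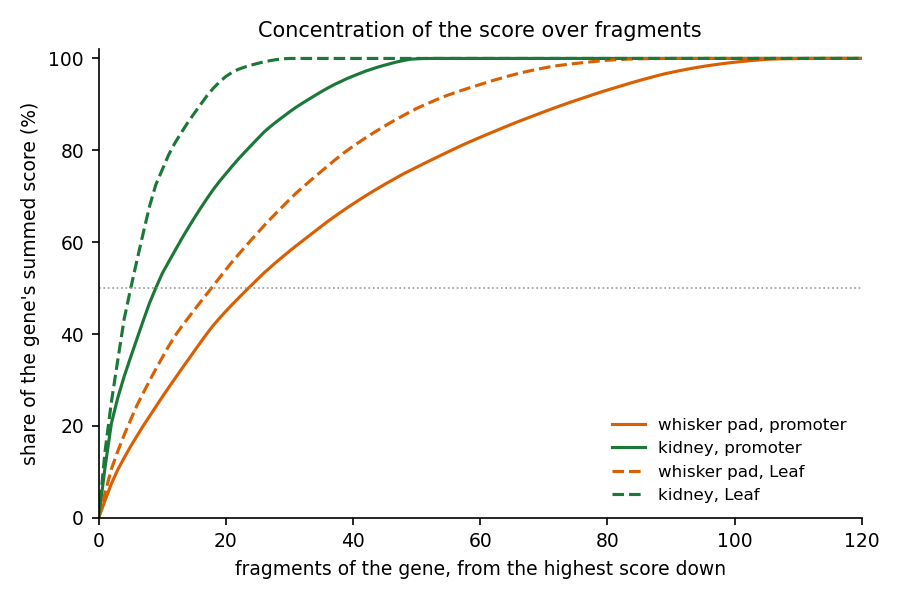
Share of the gene's summed score, in percent, held by its highest fragments, counted from the highest down, with 1 line per library. The kidney lines reach 50% after 9 fragments (promoter) and 6 (Leaf), and the whisker pad lines after 24 and 18.

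The gene was then divided into 10 bins of 10 kb, numbered from its 3′ end, of which bin 10 (8883 bp) holds the start site and bin 9 the TRACER insertion. A bin was counted as different when the mean score of one tissue was at least 2-fold that of the other. From the promoter, 6 of the 10 bins were at least 2-fold higher in whisker pad, against 38.0% of the 192 bins within 1 Mb of the promoter, and 31.6% of the 57 bins within 300 kb. No bin of the gene was at least 2-fold lower, against 18.2% of the bins within 1 Mb. Most of those lower bins lay more than 300 kb from the promoter, farther than the gene, so that this share is not one at a like distance. The median log2 ratio of the bins of the gene was 1.33, while that of the bins within 300 kb was 0.34. With only 10 neighbouring bins in 1 library per tissue, the count of 6 higher bins lies above the background but has no error attached. The count depends on the scale. Scaling to the mean of all of chromosome 3 adds 0.74 to every log2 ratio from the promoter, so that 8 bins of the gene were at least 2-fold higher and 0 lower, against 57.3% and 10.4% of the bins within 1 Mb. Scaling to the median of the fragments above 0 adds 1.08, with 9 bins higher and 0 lower, against 65.1% and 7.81%. The gene had a higher share of such bins than its surroundings under each of these scalings.

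The bins that were called from the promoter were bins 3 and 5 to 9. The ratio was largest in bin 8, 18.9 kb to 28.9 kb from the start site, where scores averaged 2.53 in whisker pad against 0.359 in kidney, a 7.04-fold difference. In that bin whisker pad had a score at 7 of 9 fragments and kidney at 3. Bin 7 had means of 2.37 and 0.533, a 4.45-fold difference, and whisker pad had a score at all 13 fragments, kidney at 5. The highest whisker pad bin was bin 5, with a mean of 2.96 against 0.879 in kidney. Bins 1 and 2 at the 3′ end, the farthest from *Lef1*, had 1.77-fold and 1.80-fold higher means in whisker pad. The stretch from bin 5 to bin 9 thus stood out as an unbroken run of higher whisker pad scores.

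Bins 4 and 10 did not share this difference. Bin 4 had a mean of 1.31 in whisker pad and 1.39 in kidney, and bin 10, at the start site, had 1.09 and 1.100. In both, 1 fragment weighed heavily on the kidney mean. Without its highest fragment, the kidney mean was 0.883 in bin 4 and 0.525 in bin 10, below the whisker pad means of 1.12 and 0.959 computed in the same way. These kidney fragments were 130875751 to 130876276, with a score of 10.0 in kidney and 3.10 in whisker pad, and 130931138 to 130931617, with 11.5 and 2.73. When the highest fragment of each library was left out of every bin, 8 bins were at least 2-fold higher in whisker pad. This alternative was added once the data had been seen. From the promoter, 1 fragment held most of the bin's score in 3 kidney bins and in 0 whisker pad bins. Leaving out the highest fragment takes a larger share from such kidney bins, which favours a higher count. Neither this count nor the means of bins 4 and 10 without that fragment are therefore a check on the tissue difference.

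From Leaf, 4 of the 10 bins were at least 2-fold higher in whisker pad, against 48.7% of the 193 bins within 1 Mb of Leaf and 41.7% of the 60 bins within 300 kb. The share was therefore near the background. Scaling to all of chromosome 3 adds 0.72 to every log2 ratio from Leaf and gave 6 bins higher and 0 lower, against 56.0% and 10.9% within 1 Mb. Scaling to the median of the fragments above 0 adds 1.49 and gave 9 and 0, against 65.3% and 9.33%. With the mean within 1 Mb as the scale, the bins called were 2, 3, 9 and 10. Bin 10 had a mean of 1.84 in whisker pad and 0.283 in kidney, a 6.49-fold difference, with 14 and 3 of its 19 fragments above 0. Bin 9 had 2.30 and 1.15, a 2.01-fold difference that only just reached the threshold. In bin 2 the 8 fragments were listed at 0 in kidney, against a mean of 0.604 in whisker pad, and in bin 3 a single kidney fragment gave a mean of 0.425 against 1.52. No bin was at least 2-fold lower in whisker pad, against 17.1% within 1 Mb, although the kidney mean was the higher in bins 1, 4, 5 and 6. As from the promoter, most of the lower bins within 1 Mb lay more than 300 kb from the viewpoint.

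The kidney means from Leaf rested on few fragments. In 6 of the 9 bins above 0, 1 fragment held more than 50% of the bin's score, as in 3 bins of the kidney promoter library and in 0 of either whisker pad library. Bin 8 had a kidney mean of 2.11 from the only fragment above 0, 130916576 to 130917110, with a score of 19.0. From the promoter this fragment was listed at 0 in kidney and was among the 3 highest of the gene in whisker pad, at 6.74, while from Leaf it was 0.671 in whisker pad. Bins 5 and 6, higher in kidney by their means of 2.39 and 1.45, had 1.05 and 0.0194 without their highest fragment, against 1.52 and 0.859 in whisker pad. When the highest fragment of each library was left out of every bin, 7 bins were at least 2-fold higher in whisker pad in place of 4. This step takes the larger share from bins that rest on 1 fragment, which were kidney bins. The rise in the count is therefore no check on the tissue difference.

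**Figure D3:**
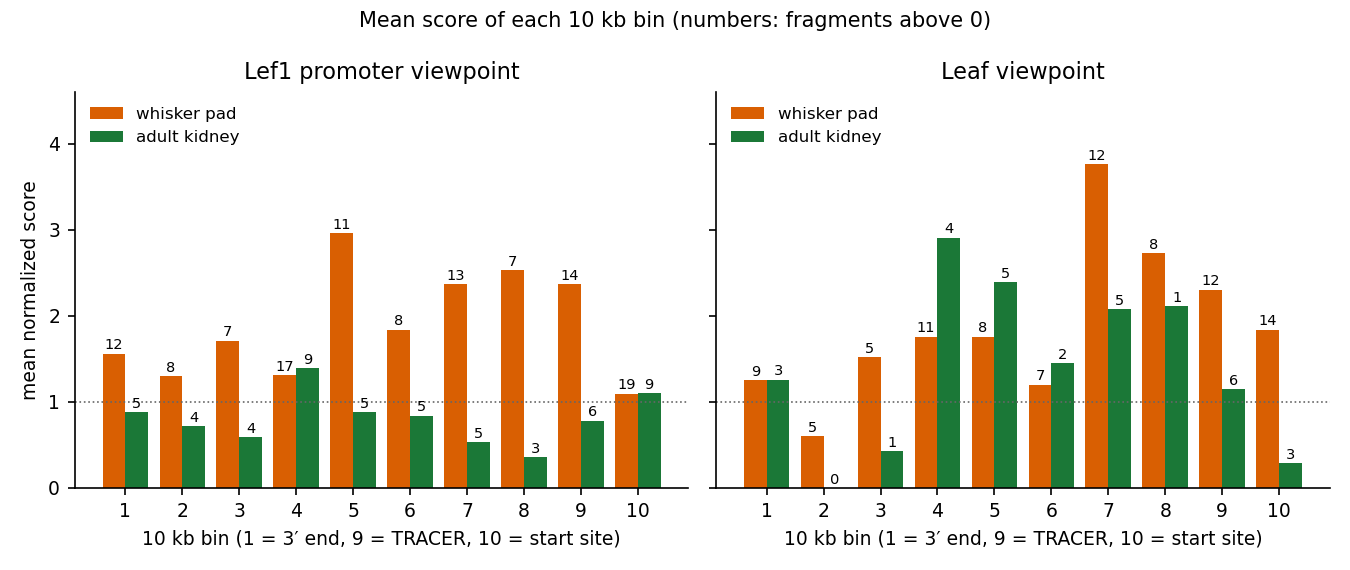
Mean normalized score of the fragments in each 10 kb bin (bars) in whisker pad (orange) and adult kidney (green), for both viewpoints. Numbers above the bars count the fragments above 0, and the dotted line marks the neighbourhood mean of 1; there is 1 library per bar. From the promoter, all whisker pad bars lie above 1, and the kidney bars of bins 4 and 10 do so.

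**Figure D4:**
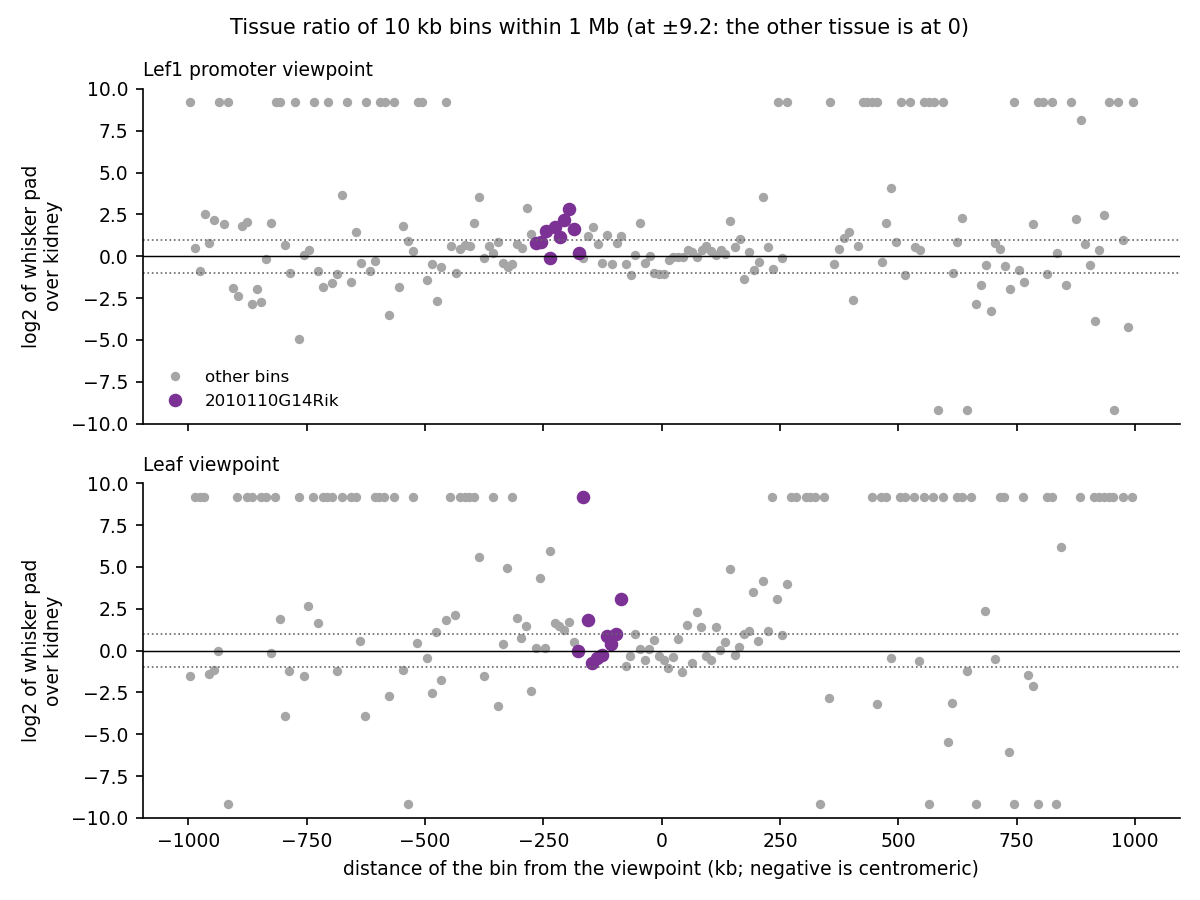
Log2 ratio of the mean score in whisker pad over kidney for every 10 kb bin within 1 Mb of each viewpoint, against the distance of the bin from the viewpoint in kb. Purple points are the bins of *2010110G14Rik* (bin 10 reaches past the start site here), dotted lines mark a 2-fold difference, and points at the upper and lower edges have a score of 0 in kidney or in whisker pad. From the promoter, bins 5 to 9 of the gene all lie above the upper dotted line, and from Leaf the bins of the gene lie on both sides of 0.

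The highest single fragments differed between the libraries. In whisker pad from the promoter, the highest was 130899661 to 130900354, in bin 7, with a score of 8.35. It was also among the 3 highest from Leaf in whisker pad, at 9.03, and had 4.31 from the promoter and 0 from Leaf in kidney. The highest from Leaf in whisker pad was the fragment in bin 4 named above, at 12.52, which was also the second of the gene from the promoter in kidney. It overlaps the noncoding RNA *Gm43351*. In kidney from Leaf, the highest fragment of the gene was 130874814 to 130874985, also within *Gm43351*. It is shown because its normalized score was the highest of the gene in any library. Its raw score, 420.5, was below the highest raw scores of the gene in whisker pad, 846.4 from the promoter and 814 from Leaf.

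Highest kidney fragment from Leaf, with its NlaIII sites, chr3:130874810-130874989, plus strand: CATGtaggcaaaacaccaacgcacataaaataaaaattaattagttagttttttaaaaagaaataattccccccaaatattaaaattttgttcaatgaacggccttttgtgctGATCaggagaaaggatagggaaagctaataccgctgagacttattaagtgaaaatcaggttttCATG

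This fragment had a score of 25.4 from Leaf in kidney, but 0 from Leaf in whisker pad, 0.380 from the promoter in whisker pad and 0 from the promoter in kidney. Its neighbour 130874170 to 130874455 had 16.0 from Leaf in kidney and 0.416 in whisker pad. Across the 120 fragments, Spearman's rho between the scores of whisker pad and kidney was 0.21 from the promoter and 0.02 from Leaf. Between the viewpoints it was 0.30 within whisker pad and 0.22 within kidney. These values describe neighbouring fragments that share length and mappability. In kidney, 65 of the 120 fragments from the promoter and 90 from Leaf were tied at 0, which limits each value that involves kidney. The low values therefore do not show that the contacts followed different orders.

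The bin of the TRACER insertion was not the highest of the gene in any of the 4 libraries. By its mean, bin 9 ranked 4 of 10 in whisker pad from the promoter (2.36), 6 in kidney from the promoter (0.779), 3 in whisker pad from Leaf (2.30) and 7 in kidney from Leaf (1.15). From the promoter, all 14 of its fragments had a score in whisker pad and 6 had one in kidney. The fragment that overlaps the insertion, shown above, had a score of 1.72 from the promoter and 2.73 from Leaf in whisker pad and was at 0 in both kidney libraries. Its nearest neighbour on the centromeric side, 130926743 to 130927112, was above 0 in all 4 libraries, and from the promoter it was the higher in kidney, at 4.84 against 2.56. From Leaf its scores were 2.19 in whisker pad and 2.13 in kidney. The neighbour on the telomeric side, 130928126 to 130928733, was close to 0 throughout, with 0.00572 and 0.0165 in whisker pad.

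Within 5 kb of the insertion, values were taken on each side. On the centromeric side, away from *Lef1*, 9 fragments had a mean of 3.11 in whisker pad and 1.08 in kidney from the promoter, a log2 ratio of 1.52. On the telomeric side, 12 fragments had means of 0.824 and 1.42, a log2 ratio of -0.79. The fragment from 130931138 to 130931617, named above, weighed heavily on that direction. Without it the means of the other 11 were 0.65 in whisker pad and 0.51 in kidney, a log2 ratio of 0.35. It was left out because it was the highest in kidney, and no fragment was left out for its whisker pad score. This choice favours a higher ratio, so that the turn is no check on the direction. From Leaf, the centromeric side had 2.70 and 1.52, a log2 ratio of 0.83, and the telomeric side had 1.29 and 0.0975, a log2 ratio of 3.73, with 1 of the 12 fragments above 0 in kidney. In whisker pad every fragment on both sides had a score from the promoter. The centromeric side includes *Gm43349*, a noncoding RNA 2.35 kb from the insertion, whose 3 fragments had means of 3.98 from the promoter and 4.56 from Leaf in whisker pad, and 1.45 and 2.43 in kidney.

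The telomeric side holds the processed pseudogene *Gm5855*, 1.84 kb from the insertion and 1305 bp long. The means of its 6 fragments were below those of the rest of the gene in each library. From the promoter they averaged 0.516 in whisker pad and 0.236 in kidney, from Leaf 0.0313 and 0.195, while the other 114 fragments of the gene had means of 1.91, 0.904, 2.04 and 1.54 in the same order. Single fragments among the 6 reached 1.99 in whisker pad and 1.03 in kidney from the promoter and 1.17 in kidney from Leaf, while the highest from Leaf in whisker pad was 0.0945. A fragment end was taken as unique when its first 30 bases, the NlaIII site included, occur once beside an NlaIII site in the reference. At 5 of the 6 fragments an end occurred several times, at most 6 times. The remaining one, with both ends unique, was the lowest of the 6 by its summed score, and is shown for this reason.

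Lowest fragment within *Gm5855*, with its NlaIII sites, chr3:130930299-130930483, plus strand: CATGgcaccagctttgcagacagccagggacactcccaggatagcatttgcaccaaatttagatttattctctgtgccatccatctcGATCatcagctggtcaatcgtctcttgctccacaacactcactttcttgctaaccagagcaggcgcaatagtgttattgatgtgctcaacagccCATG

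This fragment had 0.0613 from the promoter and 0.0442 from Leaf in whisker pad, and 0 in both kidney libraries. Elsewhere in the gene a repeated end did not go with low scores in whisker pad. The 14 fragments outside *Gm5855* with an end that was not unique had means of 2.35 from the promoter and 2.06 from Leaf in whisker pad, and 0.353 and 1.01 in kidney. The 101 fragments with both ends unique had 1.83 and 2.02 in whisker pad, and 0.971 and 1.59 in kidney. Without the *Gm5855* fragments, bin 10 still had no higher mean in whisker pad from the promoter, at 1.36 against 1.499 in kidney, and from Leaf its means were 2.67 and 0.324.

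**Figure D5:**
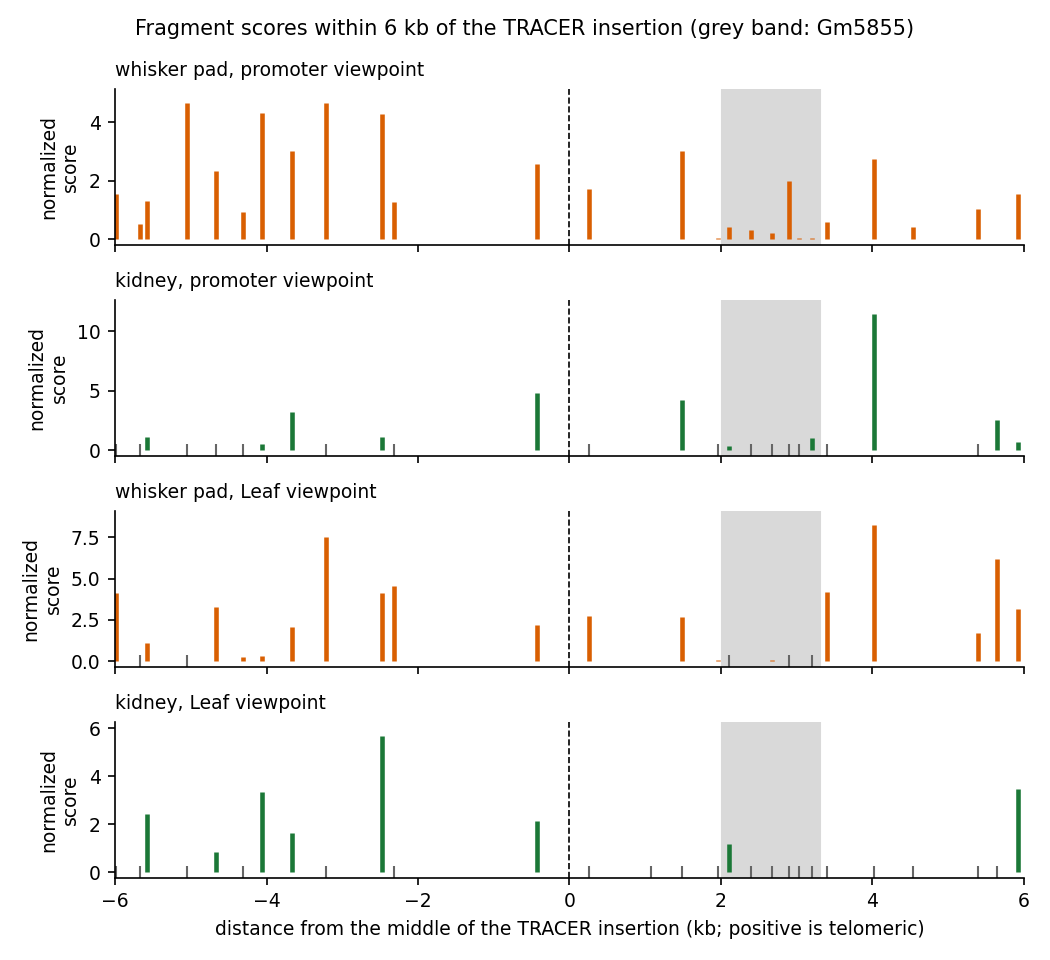
Normalized score of each fragment (bars; grey ticks mark fragments at 0) within 6 kb of the middle of the TRACER insertion (dashed line), against distance in kb, in 4 panels whose vertical axes differ. Fragments of the pseudogene *Gm5855* (grey band) do not exceed 1.99 in any panel, and the fragment at the insertion carries a score of 1.72 and 2.73 in the whisker pad panels and none in the kidney panels.

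At the start site, the fragment over exon 1 had a score of 0.554 in whisker pad and 0.766 in kidney from the promoter, and 2.14 and 0 from Leaf. The adjoining fragment inside the gene, 130936970 to 130937273, was above 0 in all 4 libraries, with 1.83 in whisker pad and 0.283 in kidney from the promoter and 1.87 and 0.732 from Leaf. The start site was thus not among the 3 highest fragments of the gene in any library. Among the genes nested in *2010110G14Rik*, the single fragment over *Gm43350*, a gene model of unsettled type, was also above 0 in all 4 libraries, at 4.31 and 0.479 from the promoter and 3.41 and 5.66 from Leaf, whisker pad first. The single fragment over *Gm36520*, another noncoding RNA, was higher in kidney, with 1.46 against 5.79 from the promoter and 0 against 10.3 from Leaf. The snoRNA *Gm26090* also had a single fragment, with 0.275 and 2.55 from the promoter and 1.01 and 0 from Leaf. *5830437K03Rik*, also of unsettled type, had 3 fragments with means of 1.48 and 0.362 from the promoter and 1.59 and 0.133 from Leaf. Fragments over the pseudogene *Gm5982* numbered 2, with means of 1.44 and 0.0443 from the promoter and 1.86 and 5.65 from Leaf.

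The viewpoints were also compared within each tissue. In whisker pad the mean of the gene was nearly the same from both, at 1.84 from the promoter and 1.94 from Leaf, a log2 ratio of Leaf over promoter of 0.08. In kidney it was 0.870 from the promoter and 1.47 from Leaf, a log2 ratio of 0.75, while fewer fragments were above 0 from Leaf (30) than from the promoter (55). In whisker pad, 0 of 10 bins were at least 2-fold higher from Leaf and 1 was at least 2-fold lower, against 21.2% and 34.8% of the 184 bins within 1 Mb of both viewpoints. In kidney 4 bins were higher from Leaf and 2 lower, against 25.0% and 52.7%. Leaf lies 89.2 kb nearer to the gene than the promoter does, so that these ratios compare different distances.

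To take account of distance, scores were divided by the value that a decay with slope -1 in log score against log distance gives for each fragment. The profile corrected mean of the gene was then 3.08 from the promoter and 1.09 from Leaf in whisker pad, and 0.969 and 0.593 in kidney. The log2 ratio of Leaf over promoter turned to -1.50 in whisker pad and -0.71 in kidney. After this correction, the log2 ratio of whisker pad over kidney was 1.67 from the promoter and 0.88 from Leaf. Within a viewpoint the correction applies the same decay with distance to both tissues. The change of the tissue ratio therefore comes from the constant, fitted in each library to fragments above 0, and from the larger weight given to farther fragments. The order of the viewpoints depended on the correction.

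Scores did not fall evenly with distance inside the gene. In whisker pad from the promoter, the 57 fragments of the 5 bins farther from *Lef1* had a mean of 1.73 and the 63 fragments of the 5 nearer bins had 1.94. From Leaf, these means were 1.46 and 2.38. In kidney the order was the opposite, with 0.978 and 0.773 from the promoter and 1.70 and 1.25 from Leaf. In whisker pad from the promoter, the order depended on the measure. After profile correction the means there were 3.25 in the farther and 2.93 in the nearer bins, whereas from Leaf they were 1.03 and 1.15. In kidney the corrected means kept their order, at 1.21 and 0.749 from the promoter and 0.786 and 0.419 from Leaf. From Leaf in kidney, 13 of the 57 farther and 17 of the 63 nearer fragments had a score.

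Set against its surroundings, the gene had a larger tissue ratio from the promoter than the stretches on either side. The centromeric flank of equal length, with 95 fragments, had means of 1.54 in whisker pad and 1.08 in kidney, a log2 ratio of 0.52. The 83 fragments between the gene and the excluded fragments at Leaf had 1.98 and 1.43, a log2 ratio of 0.47, against 1.08 in the gene. The share of fragments above 0 in whisker pad was 94.7%, 96.7% and 98.8% in the flank, the gene and the stretch towards Leaf, and in kidney 47.4%, 45.8% and 62.7%. At the same distance on the other side of the promoter, 100 fragments had means of 0.376 in whisker pad and 0.388 in kidney. The gene was above this mirror position in both tissues, at 1.84 in whisker pad and 0.870 in kidney. From Leaf, the tissue ratio of the gene (log2 0.40) was close to that of the centromeric flank (0.38), and the stretch towards Leaf had -0.13. The mirror position of the gene from Leaf covers the *Lef1* promoter and part of *Lef1*. Its 125 fragments had means of 1.87 in whisker pad and 1.57 in kidney, against 1.94 and 1.47 in the gene. No test of these differences was possible with 1 library per tissue.

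Fewer of the short fragments were detected. From the promoter, 37 of the 40 shortest fragments of the gene (up to 212 bases) had a score in whisker pad and 10 in kidney, against 39 and 23 of the 40 of middle length and 40 and 22 of the 40 longest (398 bases or more). From Leaf, the numbers were 22 and 6 of the short fragments, 31 and 12 of the middle ones and 38 and 12 of the long ones. In kidney the middle and long fragments were thus detected about equally often. The fragments of the gene had a median length of 284 bases, against 311 over all 2098 fragments within 1 Mb of either viewpoint. Both ends were unique at 101 of the 120, or 84.2%, against 93.9% of the 2098. With these 101 alone, also added once the data had been seen, the log2 ratio of whisker pad over kidney was 0.92 from the promoter and 0.34 from Leaf. The direction was thus the same for these fragments, while the ratio from the promoter no longer reached 2-fold.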

How the data were processed

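4C-Seq of mouse whisker pad and kidney used NlaIII and DpnII. The authors aligned the reads to mm10 (Bowtie2 and mm10 per the submitters' processing notes, its version not given in the sources used here), scored restriction fragments with HTSstation, and deposited for each fragment and library a raw and a smoothed signal, the smoothed one not used here. The signal is not in whole reads and its scaling is not given in the sources used here, so that depth is unknown and no counting interval is given. File starts were read as 0-based, since 2098 of 2098 fragments near the viewpoints then had an NlaIII site outside both ends, and positions are given 1-based. Genes are from GENCODE M21 and bases from the GRCm38 reference.

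Scores were scaled and binned as described above, with no pseudocount, and a ratio against a mean of 0 was not computed. The 10 kb bins of all fragments within 1 Mb, laid on the same grid, are the background. Bins and fragments of the gene share 1 library per tissue and are not replicates, so no test was run. All bins were described, and single fragments were named when they touch or adjoin the insertion or the start site or were among the 3 highest of a library in the gene. The gene and these rules were chosen with earlier results of these data known. The *Gm5855*, uniqueness, raw score, and highest-fragment-per-bin settings were added after seeing the data. The correction constant was fitted in each library to fragments above 0 within 1 Mb. The binning code was run on whisker pad scores multiplied by a known factor, and the correction code on scores made as an exact decay. Neither run held noise or a second library, so that they check the code and not the calls between sparse libraries. Software versions were 3.11.15 for Python, 2.4.6 for numpy, 2.3.3 for pandas, 1.17.1 for scipy and 3.10.9 for matplotlib.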

Additional observations from a re-analysis of the deposited data

Results flagged for a closer look

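In 5 of the 10 bins the log2 ratio of the Leaf over the promoter mean had opposite signs in the tissues. It was 0.51 in kidney and -0.32 in whisker pad in bin 1, 1.44 and -0.75 in bin 5, 0.79 and -0.62 in bin 6, 0.56 and -0.037 in bin 9, and -1.96 and 0.75 in bin 10. Each value compares 1 library with 1 library, and the difference between the tissues was not tested.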

How the results depend on the processing

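Whisker pad had the higher value for the gene in all 12 alternatives from both viewpoints. Of these, leaving out the fragments at 0 in both tissues cannot change the ratio, and another counts the fragments above 0 in place of a mean. From the promoter, the log2 ratio of 1.08 moved to 1.82 when scaled to all of chromosome 3, 2.16 with the median of fragments above 0 as the scale, 1.67 after profile correction and 3.33 with unscaled raw scores. From Leaf, 0.40 moved to 1.12, 1.89 and 2.38 with the first, the second and the last of these, and to 1.60 when fragments above 0 were counted. The ratio of Leaf over promoter in whisker pad, 0.08, moved to -0.069 and -0.80 with the 2 scalings, -1.50 after correction, -0.35 for counted fragments and -0.56 for raw scores. In kidney, 0.75 moved to -0.53 with the median scaling, -0.71 after correction and -0.87 for counted fragments, so that the order of the viewpoints is not settled.

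Of the 10 bins, the 6 that were at least 2-fold higher in whisker pad from the promoter became 9 with the median scaling, 2 at a 4-fold threshold, 10 by the medians of the fragments and 10 with raw scores. From Leaf, 4 became 9, 2, 10 and 10 under the first 4 of these settings, 1 when smoothed over 11 fragments, 1 of 5 with 20 kb bins, and 7 without the highest fragment of each bin. By medians, kidney was at 0 in every bin from Leaf and in most bins from the promoter. There any whisker pad median above 0 was counted, so that this setting restates the detection in kidney. Telomeric to the insertion, the promoter ratio of -0.79 within 5 kb turned to 0.35 without the fragment highest in kidney, also added after seeing the data. Leaving out a fragment for its high kidney score favours such a turn. A ratio of the medians of all gene fragments could not be computed, since both kidney medians were 0. No paired analysis was possible because each tissue and viewpoint has 1 library, and no replicate could be left out. Leaf scores in kidney rest on 30 fragments, which limits every ratio against them. The cause of each change was not tested.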
